A study of Mus musculus with 8 samples.

Results

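Gene expression in liver was compared between ApoE-Cyp7a1 transgenic mice given LPS and wild-type mice given LPS, to ask how liver transcripts differ with the transgene during repeated endotoxin exposure. All mice were C57Bl/6J males. LPS, bacterial lipopolysaccharide, had been injected daily at 1.5 mg/kg for 7 days in both groups, so that genotype is the labelled factor in which the groups differ. The comparison used 4 of the 8 libraries of the series: 2 of transgenic LPS liver and 2 of wild-type LPS liver, chosen by their labels, each described by the authors as a biological replicate. The other 4 libraries, 2 of untreated transgenic and 2 of untreated wild-type liver, are given beside them where they help to place a value. Values are FPKM, fragments scaled by transcript length and by the mapped fragments of the library, as deposited by the authors. A feature is 1 row of their table, or a set of rows with the same values. Of 17294 features above 0 in the series, 11215 reached 1 FPKM in 2 or more LPS libraries and were tested. In each pair of values below, replicate 1 of a group comes before replicate 2. The transgene is described as liver-specific, and its name joins Apoe and Cyp7a1. The labels name neither the species of its Cyp7a1 sequence nor the Apoe element used, and the Cyp7a1 row cannot tell transgene from endogenous transcripts.

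Cyp7a1, cholesterol 7-alpha-hydroxylase, catalyses the rate-limiting step that turns cholesterol into bile acids in hepatocytes. Bile acids signal back through the nuclear receptor FXR and through the gut hormone FGF15 to hold the enzyme down, and inflammation is known to lower it. When hepatocyte sterols run low, the membrane-bound factor SREBP-2 is cut and moves to the nucleus, where it turns on the genes of cholesterol synthesis and uptake, together with the CCAAT-binding factor NF-Y.

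Promoters of genes that carry the main observations are printed here, because the genes of cholesterol synthesis moved together and because a group of genes stood out in 1 transgenic library. Each is the 250 bases before the RefSeq transcription start (GRCm38.p6, the assembly also called mm10), 5′ to 3′ on the gene's strand. In the first 3, capitals mark CCAAT or its reverse complement ATTGG and, in Hmgcs1, the sterol regulatory element TCACCCCAC. In Btg2 and Arl4d, capitals mark the cAMP response element TGACGTCA only.
Hmgcs1 (chr13:119690101-119690350, plus strand): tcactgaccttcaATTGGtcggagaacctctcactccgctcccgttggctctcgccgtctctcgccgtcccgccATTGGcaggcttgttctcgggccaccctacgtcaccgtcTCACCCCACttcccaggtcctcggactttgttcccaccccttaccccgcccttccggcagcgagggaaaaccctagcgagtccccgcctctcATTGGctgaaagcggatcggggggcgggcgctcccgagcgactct
Msmo1 (chr8:64733579-64733828, minus strand): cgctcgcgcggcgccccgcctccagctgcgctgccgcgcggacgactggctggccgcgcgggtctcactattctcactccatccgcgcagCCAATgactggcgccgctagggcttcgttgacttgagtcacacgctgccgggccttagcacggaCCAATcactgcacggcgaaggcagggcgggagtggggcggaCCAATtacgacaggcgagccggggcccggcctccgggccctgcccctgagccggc
Lss (chr10:76531355-76531604, plus strand): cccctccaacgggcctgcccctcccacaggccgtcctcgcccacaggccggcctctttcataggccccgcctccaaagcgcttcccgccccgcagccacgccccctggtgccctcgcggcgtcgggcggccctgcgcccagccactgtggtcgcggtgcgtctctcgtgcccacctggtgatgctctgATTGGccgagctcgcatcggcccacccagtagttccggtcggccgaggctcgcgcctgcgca
Btg2 (chr1:134079156-134079405, minus strand): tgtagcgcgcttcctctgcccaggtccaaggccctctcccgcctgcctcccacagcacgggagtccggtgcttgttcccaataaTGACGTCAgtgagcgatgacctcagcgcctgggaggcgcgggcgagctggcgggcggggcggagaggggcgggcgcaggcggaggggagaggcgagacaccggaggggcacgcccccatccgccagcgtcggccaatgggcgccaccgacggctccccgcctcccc
Arl4d (chr11:101665291-101665540, plus strand): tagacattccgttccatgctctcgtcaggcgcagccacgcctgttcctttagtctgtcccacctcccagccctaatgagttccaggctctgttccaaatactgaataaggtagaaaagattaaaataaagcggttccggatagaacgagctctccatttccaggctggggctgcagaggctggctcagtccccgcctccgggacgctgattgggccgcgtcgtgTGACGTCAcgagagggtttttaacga
These 5 genes were chosen after their values were seen. The motifs were searched on both strands in windows that run from 250 bases before to 50 bases after the start.

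The FPKM of all rows summed to 406668 and 457779 in transgenic LPS liver and to 469644 and 461001 in wild-type LPS liver, and between 11799 and 11979 rows reached 1 FPKM. The hepatocyte markers Ttr, Apoa1, Cps1, Hnf4a and Serpina1a were high in all 4 libraries, with Ttr at 1437 FPKM or more. Alb was listed at 0 in all 8 libraries of the series and was not read as absent. The 2 transgenic LPS libraries stood further apart than the 2 wild-type ones. The SD of the log2 difference between replicates, over the tested features, was 0.46 in transgenic LPS liver and 0.23 in wild-type LPS liver. A difference of at least 2-fold between replicates, on the log2(FPKM + 1) scale, was seen for 418 features (3.73%) in transgenic LPS liver and for 59 (0.526%) in wild-type LPS liver. The values of both transgenic libraries are therefore given for each gene described by its FPKM. Most lists are described by their median group difference and, where given, by the median difference of each transgenic library from the mean of wild-type LPS liver.

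No feature passed the test between the groups. In limma on log2(FPKM + 1), 0 of 11215 features (0%) had a Benjamini-Hochberg adjusted p under 0.05, the smallest being 0.283, while 1785 had an unadjusted p under 0.05, 655 higher (5.84%) and 1130 lower (10.1%) in transgenic LPS liver. The count rested on the transgenic libraries: without replicate 1 of transgenic LPS liver 338 features were called and without replicate 2 of it 2449, while without either wild-type library 0 were. In these fits the lone library is assumed to vary like the other group. An exact permutation test of 2 against 2 libraries cannot go below a p of 0.333. Differences are therefore described by 2 counts without a test. Both transgenic LPS libraries lay above both wild-type LPS libraries for 2477 features (22.1%) and below both for 3394 (30.3%). The lean to lower values rests on the scaling: after quantile normalization the counts were 2972 higher and 2813 lower, and after median scaling 2929 and 2923. A feature is called set apart where, in addition, the nearest libraries of the 2 groups differ by at least 1.5-fold and by more than the replicates of either group do. That held for 57 features higher (0.508%) and 96 features lower (0.856%) in transgenic LPS liver. The log2 difference, transgenic minus wild type, had a median of -0.04 over all features. Log2 differences below are on the log2(FPKM + 1) scale, with their SE from limma.

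**Figure D1:**
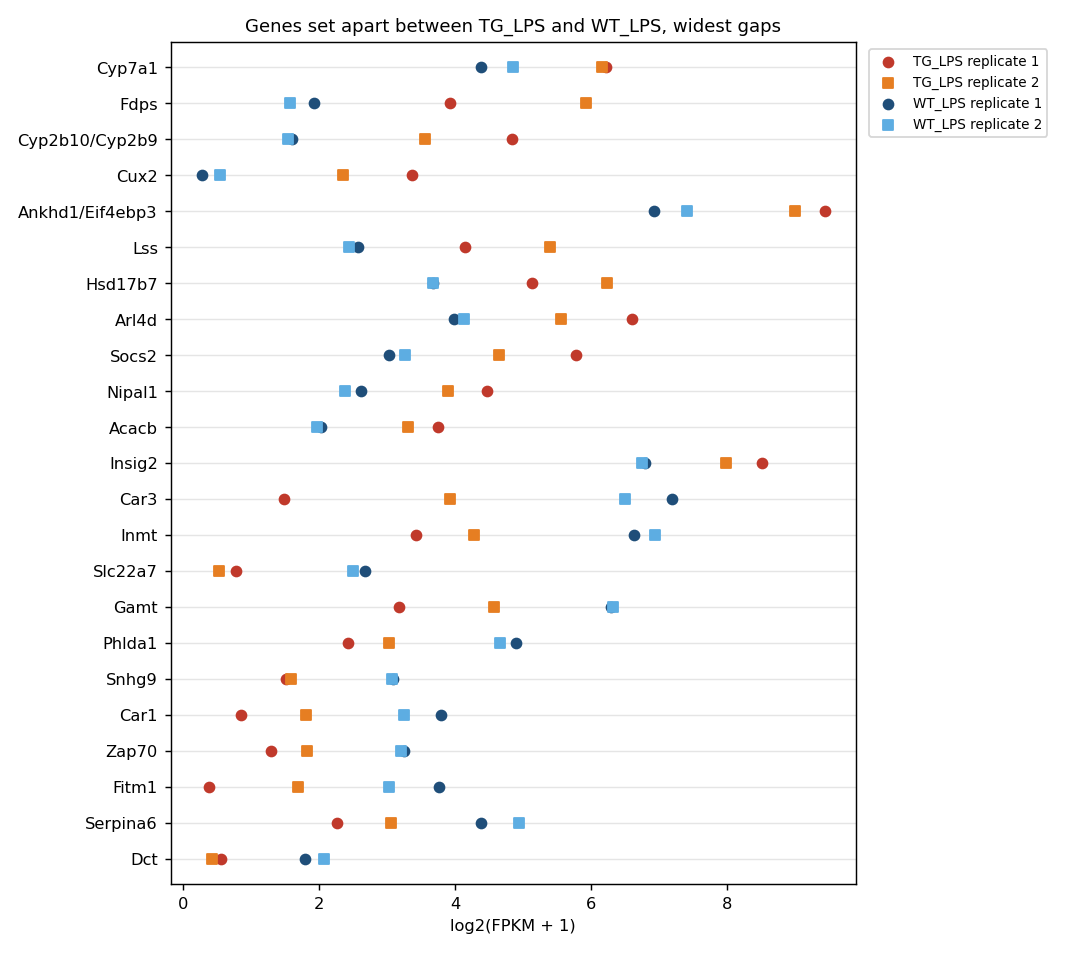
log2(FPKM + 1) of the 12 features set apart higher (top, Cyp7a1 to Insig2) and 11 of those set apart lower (bottom, Car3 to Dct), all among the widest gaps between the groups, with 1 point per LPS library. Red and orange points are the 2 transgenic LPS libraries, dark and light blue points the 2 wild-type LPS libraries. For Cyp7a1 the 2 transgenic points lie close together at 73.5 and 70.2 FPKM, while for Fdps and Car3 the transgenic points are spread.

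Cyp7a1 itself (chromosome 4, 6265612 to 6275633) was set apart. It measured 73.5 and 70.2 FPKM in transgenic LPS liver, against 19.9 and 27.9 FPKM in wild-type LPS liver, or 71.8 ± 2.29 against 23.9 ± 5.67 FPKM (SD, n = 2 each). The transgenic replicates agreed closely and lay 2.47-fold above the nearest wild-type library on the log2(FPKM + 1) scale. The log2 difference was 1.57 (SE 0.19, limma adjusted p = 0.283). Apoe (chromosome 7, 19696109 to 19699188), the lipoprotein ligand whose name the transgene carries, measured 6960.2 and 7504 FPKM in transgenic LPS liver and 11067 and 11267 FPKM in wild-type LPS liver. It did not overlap between the groups, at -0.63 (SE 0.26), and was not set apart.

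The genes of cholesterol synthesis and its control formed the group with the highest median group difference of the 41 gene lists, although in replicate 1 alone the fasting and glucocorticoid list described below had a higher one, at 0.80. Of 26 list entries 24 were tested, Mvd and Tm7sf2 sharing their rows with other genes. Of the 24, 18 lay higher in both transgenic LPS libraries and 0 lay lower, beside 22.1% and 30.3% over all features. Set apart higher were 4, Fdps, Lss, Hsd17b7 and Pmvk, beside 0.508% of all features. Idi1, under 1 FPKM in both wild-type LPS libraries, passed the filter only through the transgenic ones. By limma 0 of the 24 passed, as over all features. The median log2 difference was 1.58, against -0.04 over all features. The size differed strongly between the transgenic libraries: the median over the mean of wild-type LPS liver was 0.60 in replicate 1 and 2.55 in replicate 2. Of the 43 features that stood at least 2-fold above all other LPS libraries in replicate 2 (0.383% of those tested), 19 were genes of this list (44.2% of those features and 79.2% of the list). Pancreatic transcripts, described at the end, were low in the same library, and their part in the result was not tested.

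**Figure D2:**
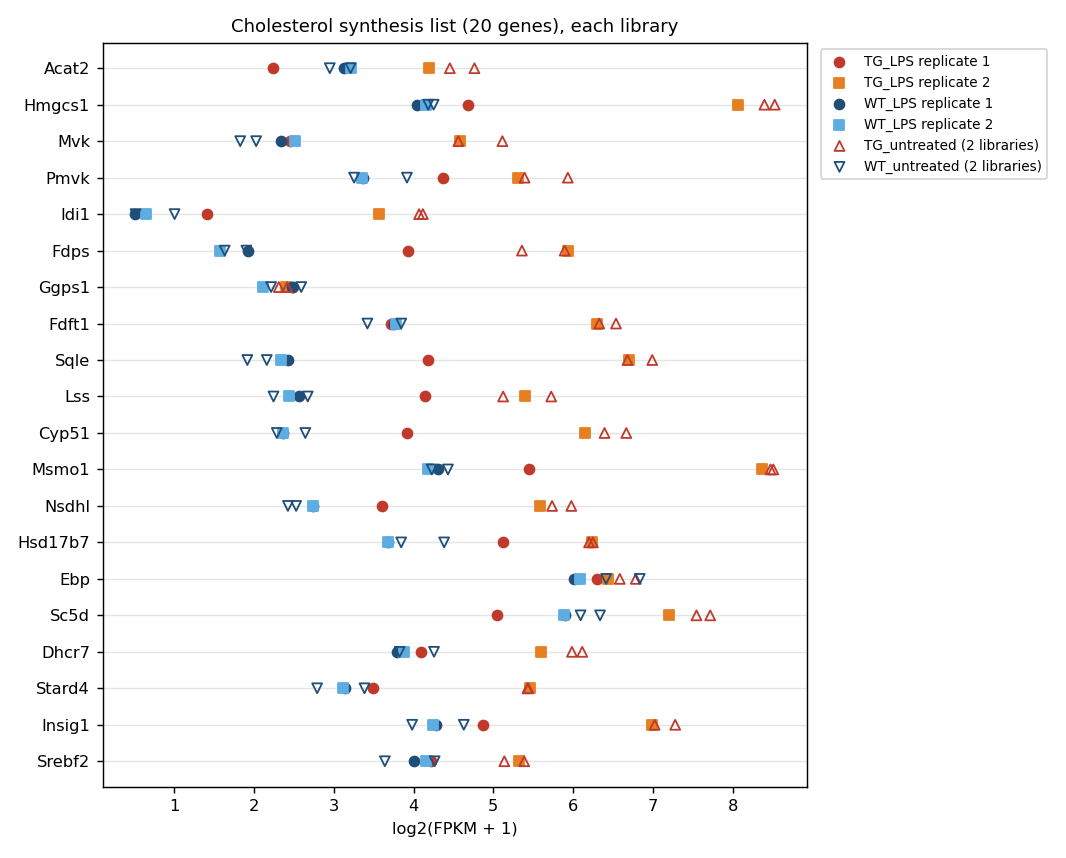
log2(FPKM + 1) of 20 tested genes of cholesterol synthesis and its control in each library, with filled points for LPS and open triangles for untreated liver. Replicate 2 of transgenic LPS liver (orange squares) lies near the untreated transgenic livers (open red triangles) for most genes. Replicate 1 (red circles) lies between them and the wild-type LPS livers (blue points) for genes such as Sqle, at 17.2 FPKM. It lies left of both wild-type LPS livers for Fdft1, Acat2 and Sc5d.

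In the mevalonate arm, Hmgcs1 (chromosome 13, 119690379 to 119708260), which makes HMG-CoA, measured 24.6 and 268 FPKM in transgenic LPS liver, against 15.5 and 16.9 FPKM in wild-type LPS liver (log2 difference 2.27, SE 1.10). Replicate 2 stood far above the other 3 libraries, and replicate 1 was also above both wild-type libraries. Fdps (chromosome 3, 89093588 to 89101959), farnesyl diphosphate synthase, had the widest gap of any gene in this comparison that was higher in transgenic liver, with 14.3 and 60.02 FPKM in transgenic and 2.80 and 1.98 FPKM in wild-type LPS liver (3.18, SE 0.66). Pmvk, phosphomevalonate kinase, measured 19.8 and 38.6 FPKM in transgenic and 9.33 and 9.26 FPKM in wild-type LPS liver. Idi1, which interconverts the isoprenoid building blocks, had 1.66 and 10.9 FPKM in transgenic and 0.42 and 0.566 FPKM in wild-type LPS liver. In 3 genes of this arm the groups overlapped. Mvk, mevalonate kinase, had 4.46 and 22.9 FPKM in transgenic and 4.08 and 4.70 FPKM in wild-type LPS liver, and Acat2, which makes acetoacetyl-CoA, had 3.72 and 17.3 against 7.72 and 8.31 FPKM. Ggps1, which branches off to protein prenylation, had 4.62 and 4.31 FPKM in transgenic and 4.58 and 3.32 FPKM in wild-type LPS liver.

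In the sterol arm, Sqle (chromosome 15, 59315077 to 59331192), squalene epoxidase, measured 17.2 and 103 FPKM in transgenic and 4.37 and 4.07 FPKM in wild-type LPS liver (3.06, SE 0.82). Lss (chromosome 10, 76531588 to 76557138), which closes the sterol ring, measured 16.8 and 41.2 FPKM in transgenic and 4.93 and 4.45 FPKM in wild-type LPS liver. Cyp51, the lanosterol demethylase, had 14.1 and 70.04 FPKM in transgenic and 4.16 and 4.15 FPKM in wild-type LPS liver. In all 3 genes even the lower transgenic replicate was well above both wild-type libraries. Msmo1, the sterol 4-methyl oxidase, measured 42.7 and 328 FPKM in transgenic and 18.8 and 17.2 FPKM in wild-type LPS liver, and Nsdhl, its partner in demethylation, 11.1 and 46.9 against 5.67 and 5.68 FPKM. Hsd17b7, the sterol ketone reductase, measured 33.9 and 74.6 FPKM in transgenic and 11.8 and 11.8 FPKM in wild-type LPS liver. Dhcr7, the last enzyme on 1 branch, had 16.1 and 47.6 FPKM in transgenic and 12.9 and 13.7 FPKM in wild-type LPS liver, and Ebp, a sterol isomerase, 77.6 and 85.7 against 63.4 and 67.1 FPKM. In 2 further genes replicate 1 was below both wild-type libraries while replicate 2 was above them. Fdft1, squalene synthase, had 12.2 and 77.9 FPKM in transgenic and 12.5 and 12.7 FPKM in wild-type LPS liver. Sc5d, a sterol desaturase, had 32.02 and 147 FPKM in transgenic and 58.8 and 58.3 FPKM in wild-type LPS liver.

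Among regulators, Insig1, which retains the SREBP complex in the endoplasmic reticulum, measured 28.4 and 126 FPKM in transgenic and 18.4 and 17.9 FPKM in wild-type LPS liver. Stard4, a sterol carrier, had 10.3 and 42.9 FPKM in transgenic and 7.80 and 7.68 FPKM in wild-type LPS liver. In both genes replicate 1 stood above wild type by less than replicate 2 did. Srebf2, which encodes SREBP-2, had 17.6 and 38.9 FPKM in transgenic and 15.1 and 16.8 FPKM in wild-type LPS liver, with replicate 1 just above wild type. Insig2 (chromosome 1, 121304353 to 121332589), the second retention protein, is not a member of the list. It was set apart and higher in replicate 1 than in replicate 2, with 363 and 252 FPKM in transgenic and 110.3 and 107 FPKM in wild-type LPS liver (1.47, SE 0.22). In untreated liver its groups overlapped, at 172 and 369 FPKM in transgenic and 162 and 523 FPKM in wild-type liver.

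A CCAAT box stood in the promoter window of 17 of the 18 list genes with an entry in the RefSeq table (94.4%), against 42.7% of the 8825 genes with a tested name and an entry, where a gene counts if any of its windows holds the motif. Acat2 was the exception. The sterol regulatory element TCACNCCAC stood in 1 of the 18 (5.56%), Hmgcs1, against 1.47% of those 8825 genes. In the printed Hmgcs1 window the element begins 137 bases before the start, with ATTGG on both sides of it. These are matches of letters, and binding was not measured.

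The untreated libraries place this group. In untreated liver 22 of the 24 genes lay higher in both transgenic libraries and 0 lower, beside 15.1% higher and 14.3% lower over all features, with a median log2 difference of 2.69. Hmgcs1 measured 368 and 336 FPKM in untreated transgenic liver and 17.2 and 18.1 FPKM in untreated wild-type liver. Sqle measured 126 and 102 FPKM in untreated transgenic and 3.47 and 2.78 FPKM in untreated wild-type liver. The summed FPKM of the 24 genes was 554 and 2167 in transgenic LPS liver and 511 and 529 in wild-type LPS liver. It was 2526 and 2215 in untreated transgenic and 566 and 480.4 in untreated wild-type liver. By this sum replicate 2 of transgenic LPS liver stood close to the untreated transgenic livers and replicate 1 close to wild type.

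Among the other genes of bile acid synthesis, a list that includes the alternative pathway, more lay lower than higher. Of 15 tested list members 8 lay lower and 1 higher in both transgenic LPS libraries, beside 30.3% lower and 22.1% higher over all features, and the list median was -0.25, with -0.50 in replicate 1 and -0.15 in replicate 2, and -0.13 after quantile normalization. Cyp8b1 (chromosome 9, 121914356 to 121916305), the sterol 12-alpha-hydroxylase that directs synthesis to cholic acid, was the 1 set-apart gene, at 86.1 and 102 FPKM in transgenic and 221 and 179 FPKM in wild-type LPS liver (-1.08, SE 0.18). It was lower in untreated transgenic liver as well, at 116 and 162 FPKM, against 343 and 505 FPKM in untreated wild-type liver. Hsd3b7, which acts directly after Cyp7a1, measured 80.9 and 105 FPKM in transgenic and 203 and 155 FPKM in wild-type LPS liver. Akr1c6, an aldo-keto reductase, measured 44.4 and 153 FPKM in transgenic and 321 and 291 FPKM in wild-type LPS liver. The peroxisomal genes Amacr, Acox2 and Hsd17b4 were lower in both replicates too. Amacr, the racemase, had 29.3 and 36.7 FPKM in transgenic and 49.997 and 44.5 FPKM in wild-type LPS liver, and the side-chain oxidase Acox2 56.8 and 87.3 against 105 and 117 FPKM. Hsd17b4, the D-bifunctional protein, had 140.3 and 176 FPKM in transgenic and 206 and 189 FPKM in wild-type LPS liver. Lower in both replicates as well were Slc27a5, which activates bile acids, at 246 and 283 against 301 and 328 FPKM, and the thioesterase Acot8 at 13.2 and 11.5 against 14.5 and 13.7 FPKM. Cyp39a1, the oxysterol 7-alpha-hydroxylase, was the 1 gene higher in both replicates, at 45.03 and 25.3 FPKM in transgenic and 12.002 and 15.3 FPKM in wild-type LPS liver (1.26, SE 0.30). In 6 genes the groups overlapped. Cyp27a1, which opens the alternative pathway, had 166 and 171 FPKM in transgenic and 153 and 182 FPKM in wild-type LPS liver. Cyp7b1, its next enzyme, had 34.6 and 90.1 FPKM in transgenic and 46.7 and 34.9 FPKM in wild-type LPS liver. Akr1d1, the steroid 5-beta-reductase, had 22.8 and 93.2 FPKM in transgenic and 82.8 and 89.6 FPKM in wild-type LPS liver, with replicate 1 far below the other libraries. Scp2, the sterol carrier protein, had 642 and 661 FPKM in transgenic and 654 and 601 FPKM in wild-type LPS liver, and Baat, which conjugates bile acids, 81.8 and 138 against 124 and 113 FPKM. The mouse muricholic acid enzyme Cyp2c70 had 24.04 and 57.97 FPKM in transgenic and 33.3 and 35.7 FPKM in wild-type LPS liver.

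**Figure D3:**
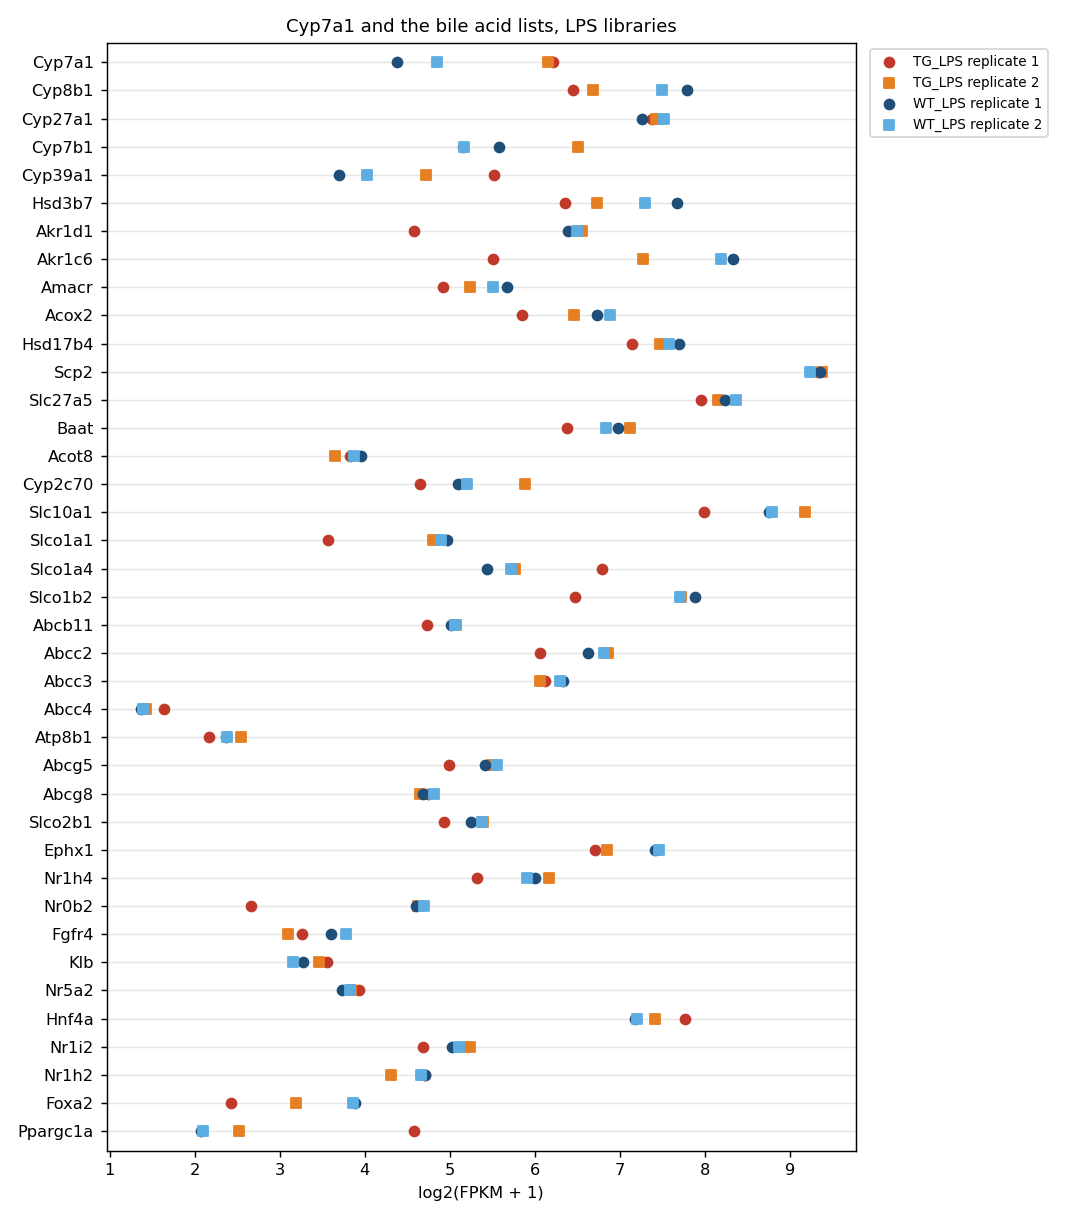
log2(FPKM + 1) of Cyp7a1 and of the tested genes of bile acid synthesis (Cyp8b1 to Cyp2c70), transport (Slc10a1 to Ephx1) and control (Nr1h4 to Ppargc1a) in the 4 LPS libraries. The 2 transgenic points of Cyp7a1 coincide near 6.2 and lie to the right of wild type, those of Cyp8b1 lie to the left. Replicate 1 of transgenic LPS liver (red) stands at least 2-fold above the other 3 libraries for 1 of 13 transport genes and below them for 2, and above them for 1 of 10 control genes and below them for 1. Over all tested features the shares were 0.963% above and 1.24% below.

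Transporters of bile acids showed no common direction. Of 13 tested genes 2 lay higher and 3 lower in both transgenic LPS libraries, beside 22.1% higher and 30.3% lower over all features, and 0 were set apart. The list had a median of -0.18 that was -0.07 after quantile normalization. The median was -0.38 in replicate 1 and 0.04 in replicate 2. Slc10a1, the main uptake transporter NTCP, measured 254 and 578 FPKM in transgenic and 430.5 and 440.4 FPKM in wild-type LPS liver, so that the transgenic replicates lay on either side. Abcb11, the bile salt export pump, measured 25.6 and 32.8 FPKM in transgenic and 31.2 and 32.3 FPKM in wild-type LPS liver. The uptake transporter Slco1b2 had 87.7 and 209.99 FPKM in transgenic and 236 and 208 FPKM in wild-type LPS liver. Ephx1, epoxide hydrolase, was lower in both replicates, with 104 and 114 FPKM in transgenic and 169.7 and 175 FPKM in wild-type LPS liver. Among 10 tested regulators, Nr1h4, which encodes FXR, had 39.02 and 71.01 FPKM in transgenic and 62.8 and 58.9 FPKM in wild-type LPS liver. Nr0b2, the FXR-induced repressor SHP, had 5.33 and 23.6 FPKM in transgenic and 23.3 and 24.99 FPKM in wild-type LPS liver, with replicate 1 alone low. Fgfr4, the FGF15 receptor, had 8.61 and 7.59 FPKM in transgenic and 11.1 and 12.8 FPKM in wild-type LPS liver, and its co-receptor Klb 10.7 and 10.04 against 8.63 and 7.89 FPKM. Hnf4a, the hepatocyte factor that drives Cyp7a1 and Cyp8b1, measured 217 and 169.8 FPKM in transgenic and 144 and 146 FPKM in wild-type LPS liver, higher in both replicates, while the pioneer factor Foxa2 was lower in both at 4.38 and 8.15 against 13.8 and 13.5 FPKM.

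Growth hormone pulses set sex differences of rodent liver, and some genes of that program were set apart. Of 11 tested female-biased genes 3, Cux2, Nipal1 and Fmo2, were set apart higher, beside 0.508% of all features. A further 15 entries of this list fell under the filter. Cux2, under 1 FPKM in both wild-type LPS libraries, passed the filter only through the transgenic ones, where it is high. It is therefore no independent support for this share. Cux2 (chromosome 5, 121856366 to 122050102), a transcription factor of female mouse liver, measured 9.34 and 4.13 FPKM in transgenic LPS liver and 0.211 and 0.456 FPKM in wild-type LPS liver (2.46, SE 0.36). The row shared by Cyp2b10 and Cyp2b9, P450 enzymes of which the first is a target of the receptor CAR and the second is higher in female mice, measured 27.6 and 10.8 FPKM in transgenic and 2.03 and 1.92 FPKM in wild-type LPS liver (2.63, SE 0.43). Nipal1, a magnesium transporter, had 21.2 and 13.8 FPKM in transgenic and 5.11 and 4.23 FPKM in wild-type LPS liver, and the flavin monooxygenase Fmo2 78.8 and 47.6 against 12.8 and 22.6 FPKM. In each of these the higher transgenic value was in replicate 1, and both replicates were clear of wild type. Of the 11 female-biased genes 5 lay higher and 1 lower in both transgenic LPS libraries, beside 22.1% higher and 30.3% lower over all features, with a median of 0.04, which was 0.40 in replicate 1 and 0.04 in replicate 2. Of 23 tested male-biased and growth hormone axis genes 2 lay higher and 10 lower, beside the same shares over all features, with a median of -0.55, which came from replicate 1 (-0.81) and not replicate 2 (0.00). In untreated liver 1 of the 11 female-biased genes lay higher and 8 lower in both transgenic libraries, with a median of -0.77. Of the 23 male-biased and growth hormone axis genes 2 lay higher and 3 lower there, with a median of 0.14. Over all features 15.1% lay higher and 14.3% lower in untreated transgenic liver. Under LPS 1 gene of the male-biased list was set apart in each direction. Socs2 (chromosome 10, 95385362 to 95417180), the growth-hormone-induced inhibitor of cytokine receptors, was higher, at 53.9 and 24.1 FPKM in transgenic and 7.21 and 8.63 FPKM in wild-type LPS liver (2.06, SE 0.39). Susd4, a male-biased complement regulator, was lower, at 1.78 and 3.85 FPKM in transgenic and 11.7 and 8.52 FPKM in wild-type LPS liver. Ghr, the growth hormone receptor, had 38.1 and 90.1 FPKM in transgenic and 116 and 115 FPKM in wild-type LPS liver, and Igfals, which stabilises IGF1 in blood, 9.36 and 32.4 against 39.4 and 36.03 FPKM. The Y-linked gene Eif2s3y had 22.6 and 28.7 FPKM in transgenic and 24.8 and 26.99 FPKM in wild-type LPS liver, and Ddx3y 24.3 and 21.9 against 16.4 and 13.6 FPKM.

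Genes of lipid handling were set apart in both directions. Acacb (chromosome 5, 114146535 to 114250761), the mitochondrial acetyl-CoA carboxylase that restrains fatty acid oxidation, measured 12.4 and 8.88 FPKM in transgenic and 3.10 and 2.91 FPKM in wild-type LPS liver (1.53, SE 0.18). Lpin1, a phosphatidate phosphatase and coactivator, measured 349.7 and 219.7 FPKM in transgenic and 75.2 and 121 FPKM in wild-type LPS liver (1.53, SE 0.33). Lower were Pparg, the adipogenic nuclear receptor, at 0.765 and 1.39 against 3.86 and 2.94 FPKM, and Agpat2, which acylates lysophosphatidate, at 47.05 and 74.1 against 123 and 119 FPKM. Over the 26 tested lipogenesis genes 8 lay higher and 5 lower in both replicates, beside 22.1% and 30.3% over all features, with a median of 0.20, which was -0.05 in replicate 1 and 0.38 in replicate 2. For the lists that follow, counts of higher and lower genes stand beside the same shares over all features. Fasn, fatty acid synthase, had 11.6 and 48.02 FPKM in transgenic and 10.6 and 13.9 FPKM in wild-type LPS liver, where replicate 2 alone was high. Fitm1, a lipid droplet protein, measured 0.298 and 2.23 FPKM in transgenic and 12.6 and 7.21 FPKM in wild-type LPS liver. Over 27 tested glucose metabolism genes 4 lay higher and 7 lower in both, with a median of -0.11 (-0.20 in replicate 1 and -0.01 in replicate 2). Of 32 PPARalpha and fatty acid oxidation genes 6 lay higher and 21 lower. Their median was -0.22 (-0.25 in replicate 1 and -0.13 in replicate 2), with -0.05 after quantile normalization and -0.18 after median scaling. Fabp1, the liver fatty acid binding protein, measured 875 and 1889.98 FPKM in transgenic and 3272 and 2975 FPKM in wild-type LPS liver, while the PPARalpha target Cyp4a14 had 3136 and 2639.9 against 2190.5 and 1305 FPKM. Of 14 tested apolipoprotein and lipoprotein genes 2 lay higher and 8 lower, with a median of -0.29 (-0.40 in replicate 1 and -0.16 in replicate 2) that was -0.18 after quantile normalization. Apoc1 had 1701 and 3082 FPKM in transgenic and 3582 and 4131 FPKM in wild-type LPS liver, and Apoa1, the HDL protein, 8024 and 5071 against 7916 and 7799 FPKM. Of 10 LXR targets 1 lay higher and 3 lower, with a median of -0.05 that was 0.03 after quantile normalization, and the phosphodiesterase Smpdl3a had 57.3 and 59.6 against 53.5 and 51.8 FPKM. Scd1, the stearoyl-CoA desaturase, had 556 and 477 FPKM in transgenic and 487 and 581 FPKM in wild-type LPS liver, with overlapping groups.

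The widest gaps between the groups were those of Car3 and Inmt, both lower in transgenic LPS liver. Car3 (chromosome 3, 14863512 to 14872523), carbonic anhydrase 3, measured 1.81 and 14.3 FPKM in transgenic and 145 and 89.4 FPKM in wild-type LPS liver (-4.13, SE 0.82), a gap of 5.92-fold between the nearest libraries. Inmt (chromosome 6, 55170626 to 55175043), an N-methyltransferase, measured 9.75 and 18.5 FPKM in transgenic and 98.5 and 122 FPKM in wild-type LPS liver (-2.94, SE 0.31). Slc22a7 (chromosome 17, 46432183 to 46438457), the organic anion transporter OAT2, measured 0.721 and 0.442 FPKM in transgenic and 5.40 and 4.69 FPKM in wild-type LPS liver (-1.94, SE 0.15). Car3 was lower in replicate 1 than in replicate 2, and Slc22a7 was low in both. Gamt, which makes creatine, measured 8.02 and 22.9 FPKM in transgenic and 77.7 and 78.8 FPKM in wild-type LPS liver. Serpina6, the corticosteroid-binding globulin, measured 3.79 and 7.36 FPKM in transgenic and 19.8 and 29.7 FPKM in wild-type LPS liver (-1.997, SE 0.33). Phlda1 had 4.35 and 7.17 FPKM in transgenic and 28.8 and 24.2 FPKM in wild-type LPS liver, and Dct, dopachrome tautomerase, 0.475 and 0.347 against 2.45 and 3.23 FPKM. Slc22a7 and Dct, under 1 FPKM in both transgenic LPS libraries, passed the filter only through the wild-type ones, where they are high. They are therefore no independent support for the share of features set apart lower. Snhg9, a host gene of small nucleolar RNA, had 1.86 and 2.00 FPKM in transgenic and 7.48 and 7.42 FPKM in wild-type LPS liver, with replicates almost equal within each group. On the higher side, the row shared by Ankhd1 and Eif4ebp3, the second a translation repressor, measured 690.2 and 509.9 FPKM in transgenic and 121 and 169 FPKM in wild-type LPS liver (2.05, SE 0.25). Arl4d, a small GTPase, had 96.6 and 45.9 FPKM in transgenic and 14.8 and 16.6 FPKM in wild-type LPS liver.

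More drug-metabolizing and conjugating enzymes lay lower than higher, as did all features in the deposited scaling. Of 20 tested P450 genes 10 lay lower and 2 higher in both transgenic LPS libraries, and of 23 NRF2 target and conjugation genes 12 lay lower and 4 higher, beside 30.3% lower and 22.1% higher over all features. The P450 median was -0.52 and came largely from replicate 1, with -0.78 in replicate 1 and -0.08 in replicate 2. The NRF2 median was -0.46, with -0.64 in replicate 1 and -0.19 in replicate 2. After quantile normalization the P450 median was -0.49 and the NRF2 median -0.35. Cyp1a2, which oxidizes caffeine, measured 20.5 and 38.1 FPKM in transgenic and 77.9 and 83.02 FPKM in wild-type LPS liver. Cyp2a5 had 51.6 and 95.2 FPKM in transgenic and 199.5 and 250.04 FPKM in wild-type LPS liver, and Cyp2a22 0.133 and 0.158 against 2.13 and 1.28 FPKM. Cyp2a22, under 1 FPKM in both transgenic LPS libraries, passed the filter only through the wild-type ones, where it is high. It is therefore no independent support for the count of lower P450 genes. The glucuronosyltransferase Ugt2b1 had 19.2 and 34.4 FPKM in transgenic and 67.4 and 63.4 FPKM in wild-type LPS liver, and the glutathione transferase Gsta2 1.14 and 2.39 against 5.67 and 5.27 FPKM. The sulfotransferase Sult1d1 was set apart the other way, at 215 and 279 FPKM in transgenic and 120.2 and 138 FPKM in wild-type LPS liver. Members of these families are close in sequence, and no source names how the authors' counting split shared fragments. Of 40 tested subunits of the mitochondrial respiratory chain 32 lay lower in both transgenic LPS libraries and 1 higher, beside 30.3% and 22.1% over all features. Their median was -0.24 (-0.28 in replicate 1 and -0.15 in replicate 2), with -0.08 after quantile normalization and -0.20 after median scaling. Atp5b, an ATP synthase subunit, had 516 and 505 FPKM in transgenic and 551 and 562 FPKM in wild-type LPS liver, and Cox4i1, of cytochrome c oxidase, 412 and 402 against 465 and 431 FPKM, where the direction turned after quantile normalization. Among 32 hepatocyte genes 6 lay higher and 14 lower, with a median of -0.22 (-0.38 in replicate 1 and -0.14 in replicate 2) that was -0.13 after quantile normalization, and the factor Foxa1 was set apart at 2.21 and 3.03 against 5.11 and 5.90 FPKM.

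Genes induced by fasting and glucocorticoids had the second highest median group difference of the 41 lists. Of 35 tested 26 lay higher in both transgenic LPS libraries, 2 lower, and 4 were set apart, beside 22.1%, 30.3% and 0.508% over all features. The median was 0.76, with 0.80 in replicate 1 and 0.37 in replicate 2. The 4 were Lpin1, given above, and 3 genes whose replicates lay close together. Gadd45b (chromosome 10, 80930073 to 80932204), a stress-induced regulator of MAP kinase signalling, measured 8.46 and 9.62 FPKM in transgenic and 3.03 and 3.46 FPKM in wild-type LPS liver (1.24, SE 0.13). Tsc22d3, the glucocorticoid-induced leucine zipper GILZ, measured 116 and 117 FPKM in transgenic and 59.8 and 66.6 FPKM in wild-type LPS liver. Cdkn1a, the cell cycle inhibitor p21, measured 27.8 and 30.9 FPKM in transgenic and 13.8 and 17.5 FPKM in wild-type LPS liver. In untreated liver the same list leaned the other way, with 22 of 35 genes lower and 1 higher in both transgenic libraries. Over all features 14.3% lay lower and 15.1% higher there, and the list median was -0.50.

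Replicate 1 of transgenic LPS liver carried a set of genes far above the other 3 libraries. In all 108 features (0.963%) stood at least 2-fold above them and 139 (1.24%) at least 2-fold below, while replicate 2 stood so far above for 43 (0.383%) and below for 22 (0.196%). Among the 108 were 8 of 27 tested immediate early and heat shock genes, 7 of 35 fasting and glucocorticoid genes and 4 of 36 genes of amino acid and urea metabolism. Igfbp1 (chromosome 11, 7197782 to 7202546), the insulin-repressed IGF binding protein, measured 3961 and 364 FPKM in transgenic and 99.4 and 166 FPKM in wild-type LPS liver (4.94 in replicate 1 and 1.50 in replicate 2 over wild type). Ddit4, an inhibitor of mTORC1 also called REDD1, had 295 and 89.3 FPKM in transgenic and 22.8 and 32.01 FPKM in wild-type LPS liver, and Gadd45g 232 and 75.6 against 19.7 and 27.5 FPKM. In these 3 genes replicate 2 was also above both wild-type libraries. Irs2, the insulin receptor substrate, had 36.7 and 5.98 FPKM in transgenic and 4.41 and 5.13 FPKM in wild-type LPS liver, and Lepr, the leptin receptor, 67.2 and 7.02 against 4.39 and 5.15 FPKM. Ppargc1a, the gluconeogenic coactivator PGC-1alpha, had 22.9 and 4.73 FPKM in transgenic and 3.21 and 3.30 FPKM in wild-type LPS liver. Tat and Got1, aminotransferases, also peaked in replicate 1. Tat had 2908 and 1388 FPKM in transgenic and 632 and 884 FPKM in wild-type LPS liver, and Got1 1379 and 358 against 235 and 292 FPKM. Over the 36 tested genes of amino acid metabolism 10 lay higher and 13 lower in both replicates, beside 22.1% and 30.3% over all features. Their median was -0.02, with 0.13 after quantile normalization and 0.02 after median scaling. Mat1a, which makes S-adenosylmethionine, had 4061 and 3239 FPKM in transgenic and 2789 and 2969 FPKM in wild-type LPS liver, and Gnmt, which uses it, 1195 and 1610.1 against 1638 and 1821 FPKM.

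The features that exceeded the other libraries most in replicate 1 also included Rab30, a Golgi GTPase, at 119.8 and 7.13 FPKM in transgenic and 3.37 and 3.88 FPKM in wild-type LPS liver. Enc1 had 63.8 and 3.18 FPKM in transgenic and 2.65 and 3.11 FPKM in wild-type LPS liver, and Fst, the activin antagonist follistatin, 33.6 and 1.87 against 1.13 and 1.15 FPKM. Sik1, a kinase induced by cAMP, had 56.5 and 9.81 FPKM in transgenic and 8.83 and 8.75 FPKM in wild-type LPS liver, and the antiproliferative Btg2 115 and 22.4 against 17.9 and 15.9 FPKM. In these 5 genes replicate 2 lay above both wild-type libraries by far less than replicate 1 did. Fam222a had 12.4 and 0.931 FPKM in transgenic and 1.06 and 0.963 FPKM in wild-type LPS liver, and Cdc42ep5, a regulator of the cytoskeleton, 33.2 and 3.88 against 4.47 and 4.08 FPKM. The 8 immediate early genes in the set were Fos, Fosl2, Jun, Ier3, Btg2, Klf6, Nr4a1 and Maff. Fos had 12.8 and 1.20 FPKM in transgenic and 1.74 and 2.40 FPKM in wild-type LPS liver, Jun 24.8 and 6.93 against 5.46 and 7.47 FPKM and the orphan nuclear receptor Nr4a1 12.7 and 2.21 against 2.56 and 3.10 FPKM. Over the list of 27 the groups did not overlap for 4 genes higher and 2 lower, beside 22.1% and 30.3% over all features. The list median was 0.17, with 0.51 in replicate 1 and -0.11 in replicate 2. The chaperone Hspa8 had 78.2 and 73.3 FPKM in transgenic and 72.2 and 69.8 FPKM in wild-type LPS liver, and Zfp36, which destabilizes cytokine mRNAs, 90.8 and 62.5 against 47.6 and 67.1 FPKM. The full cAMP response element stood in the promoter window of 9 of 74 genes of the 108-feature set with an entry (12.2%), among them Btg2, Arl4d and Maff, against 3.49% of the 8825 genes. The genes were chosen by their values in this library, so this share is a description.

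**Figure D4:**
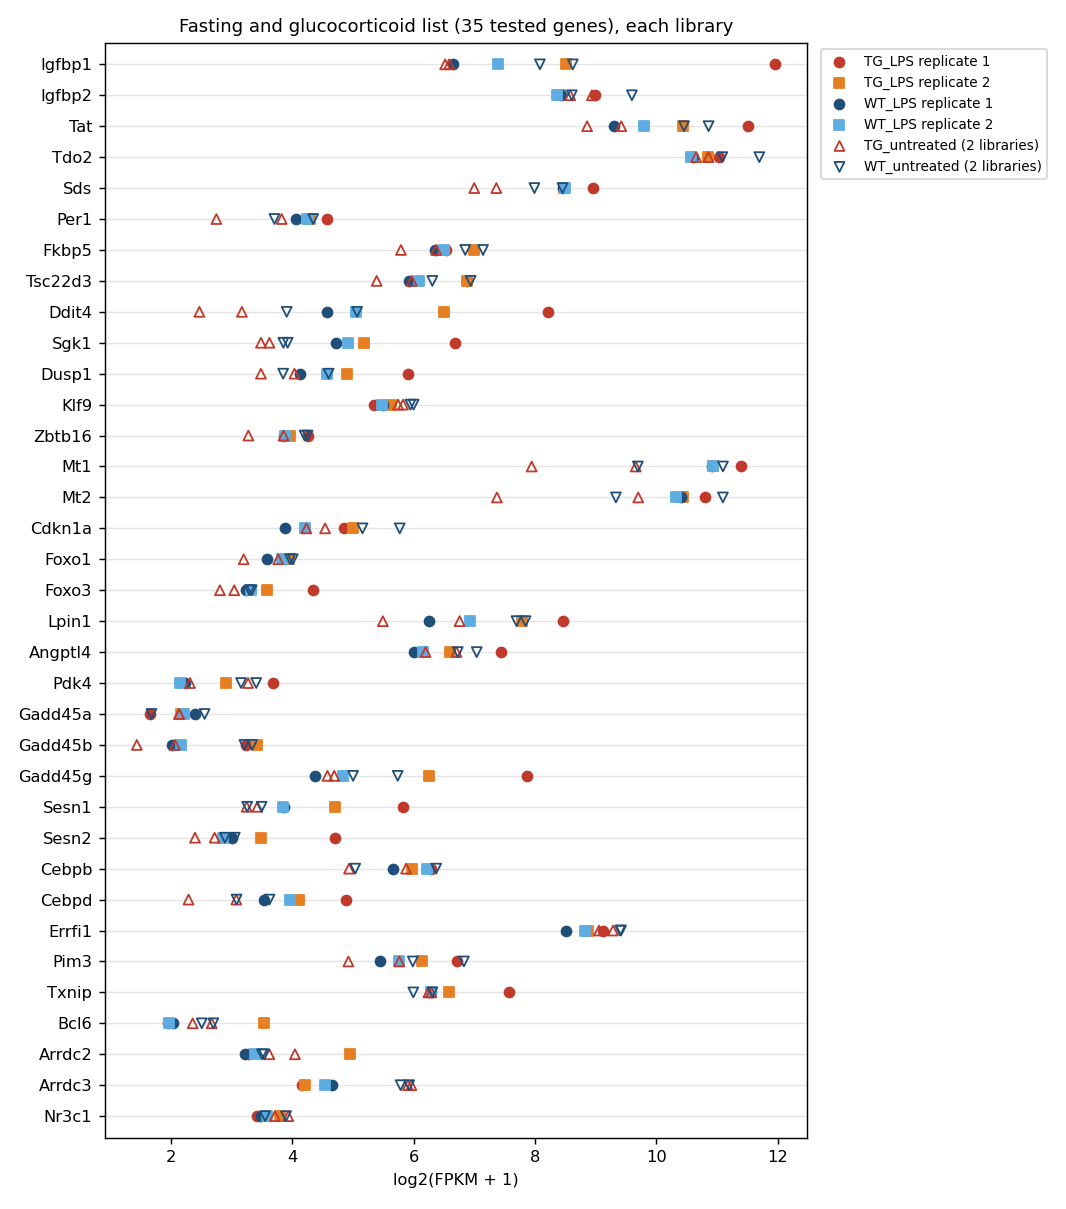
log2(FPKM + 1) of the 35 tested fasting and glucocorticoid genes in each library, with filled points for LPS and open triangles for untreated liver. Replicate 1 of transgenic LPS liver (red circles) is the rightmost point for genes such as Igfbp1, Ddit4 and Gadd45g. For Gadd45b, Tsc22d3 and Lpin1 the 2 transgenic LPS points lie right of wild-type LPS liver, and the untreated transgenic livers lie left of the untreated wild-type livers.

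On the low side, replicate 1 held 7 of 23 tested male-biased and growth hormone genes and 6 of 23 clock genes at least 2-fold below the other LPS libraries. Over all features this held for 1.24%. Ppp1r3c, a glycogen-targeting subunit, measured 0.604 and 31.1 FPKM in transgenic and 12.8 and 13.5 FPKM in wild-type LPS liver, so that replicate 2 was above wild type. Tsku, a secreted hepatokine, had 5.51 and 46.4 FPKM in transgenic and 37.6 and 55.5 FPKM in wild-type LPS liver, and the antimicrobial peptide and ghrelin antagonist Leap2 6.34 and 42.3 against 55.3 and 46.1 FPKM. The joint row of the Hsd3b1 to Hsd3b6 steroid dehydrogenases had 3.82 and 27.5 FPKM in transgenic and 65.6 and 57.97 FPKM in wild-type LPS liver. Akr1c20 had 2.46 and 19.8 FPKM in transgenic and 33.9 and 27.5 FPKM in wild-type LPS liver. The clock genes included Per3, Hlf, Bhlhe40, Ciart and Usp2. Per3, a period gene, had 3.49 and 13.1 FPKM in transgenic and 13.7 and 12.7 FPKM in wild-type LPS liver, and Ciart, a repressor of the clock, 4.86 and 23.7 against 17.6 and 15.4 FPKM. Over the 23 tested clock genes 6 lay higher and 6 lower in both replicates, beside 22.1% and 30.3% over all features. The list median was -0.43, with -0.61 in replicate 1 and 0.04 in replicate 2. Por, P450 reductase, was not on the low side but highest in replicate 1, with 604 and 357 FPKM in transgenic and 294 and 396 FPKM in wild-type LPS liver. Tspan4 had 38.6 and 49.9 against 59.6 and 59.7 FPKM, lowest in replicate 1 by less than 2-fold. The hour of tissue collection is not named in the labels. In replicate 2 the feature farthest above the others outside cholesterol synthesis was Dalrd3, at 12.9 and 126 FPKM in transgenic and 14.2 and 14.7 FPKM in wild-type LPS liver.

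**Figure D5:**
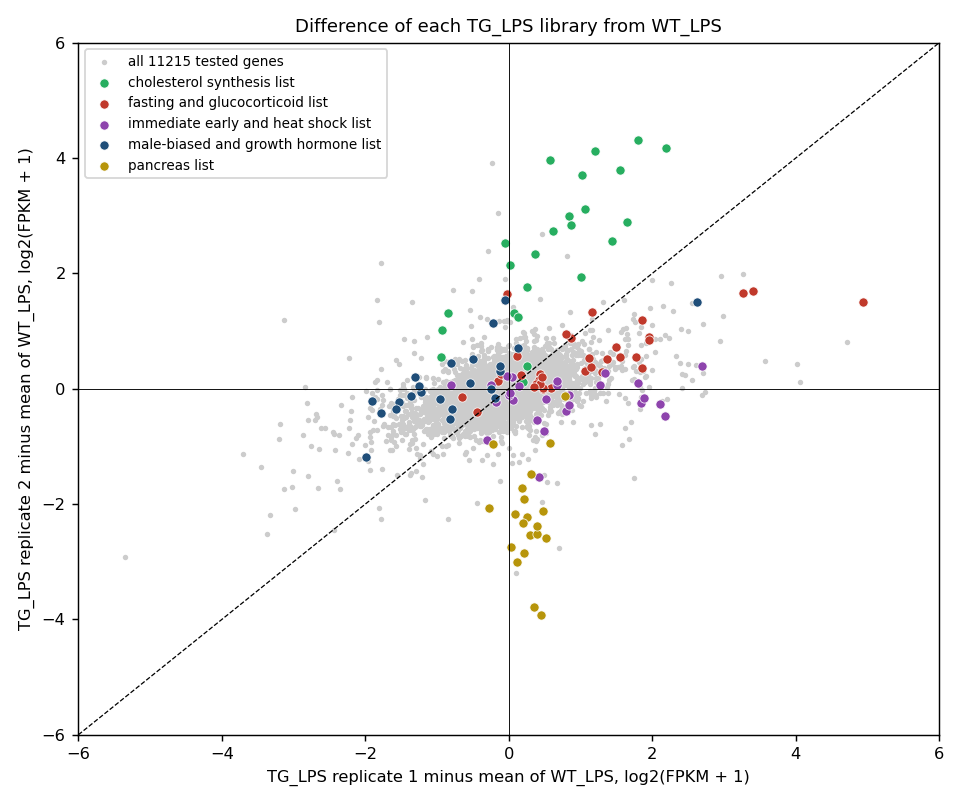
Difference of replicate 1 (x axis) and replicate 2 (y axis) of transgenic LPS liver from the mean of the 2 wild-type LPS livers on the log2(FPKM + 1) scale, with 1 point per tested feature and 5 gene lists in colour. The dashed line marks equal differences. Cholesterol synthesis genes (green) lie mainly above it, with medians of 0.60 on the x axis and 2.55 on the y axis, fasting genes (red) mainly below it, and pancreas genes (yellow) close to 0 on the x axis and down to -3.92, for Ctrb1, on the y axis.

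Lists of immune and other nonparenchymal cells had medians between -0.38 and 0.02. In whole liver, fewer cells of a type and less RNA per cell cannot be told apart. The cell that a transcript came from was not measured either, so genes in these lists may also come from hepatocytes. Counts of higher and lower genes stand beside 22.1% higher and 30.3% lower over all features. Of 34 tested macrophage and Kupffer cell genes 6 lay higher and 7 lower in both transgenic LPS libraries. Their median was -0.09, with 0.06 after quantile normalization and -0.05 after median scaling. Marco, a scavenger receptor, measured 349 and 372 FPKM in transgenic and 388 and 442 FPKM in wild-type LPS liver, and the row of the lysozymes Lyz1 and Lyz2 467 and 362 against 472 and 429 FPKM. Of 26 lysosomal and lipid-associated macrophage genes 7 lay higher and 4 lower (0.02), with the protease Ctsl at 793 and 551 against 424 and 438 FPKM and the membrane protein Lamp1 at 271 and 328 against 332 and 319.5 FPKM. Of 18 neutrophil genes 0 lay higher and 5 lower, with a median of -0.38 (-0.28 in replicate 1 and -0.51 in replicate 2) that ran from -0.62 to -0.13 without single libraries, and S100a8 had 137 and 96.2 FPKM in transgenic and 163 and 94.6 FPKM in wild-type LPS liver. Of 11 MHC class II genes 1 lay higher and 7 lower, with a median of -0.25 (-0.30 in replicate 1 and -0.21 in replicate 2). Cd74, the invariant chain, had 69.8 and 75.8 FPKM in transgenic and 98.3 and 75.8 FPKM in wild-type LPS liver, and the protease Ctss 127 and 137 against 132 and 119.7 FPKM. Of 14 B and plasma cell genes 0 lay higher and 7 lower (-0.20, and -0.10 after quantile normalization), with Sdc1, which hepatocytes also express, at 81.6 and 81.5 against 95.3 and 94.7 FPKM and Xbp1 at 68.6 and 76.02 against 75.3 and 74.3 FPKM. Of 9 T and NK cell genes 2 lay higher and 2 lower (-0.05), and Zap70, the T cell receptor kinase, was set apart at 1.45 and 2.54 against 8.53 and 8.22 FPKM. Of 30 endothelial genes 7 lay higher and 11 lower (-0.02, and 0.06 after quantile normalization), with Lyve1, of sinusoids and lymphatics, at 92.5 and 91.1 against 72.2 and 80.7 FPKM and Lrg1 at 545 and 790.4 against 914 and 895 FPKM. Of 49 stellate cell and matrix genes 6 lay higher and 7 lower, with the matrix genes Fn1 at 195 and 257 against 187 and 213 FPKM and Dcn at 178 and 207 against 212 and 174 FPKM. Of 12 cholangiocyte genes 0 lay higher and 5 lower (-0.16), a median whose direction turned when wild-type replicate 1 was left out (0.066) and that was -0.55 when wild-type replicate 2 was, with the keratins Krt8 at 17.6 and 28.8 FPKM in transgenic and 55.6 and 41.3 FPKM in wild-type LPS liver and Krt18 at 71.2 and 62.98 against 109 and 73.6 FPKM. Of 36 cell cycle genes 2 lay higher and 11 lower (-0.14).

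Among signalling genes, the chemokine Cxcl1 was set apart lower, at 2.30 and 2.62 FPKM in transgenic and 8.67 and 5.57 FPKM in wild-type LPS liver (-1.21, SE 0.21). Il1r1, the interleukin-1 receptor, was set apart higher, at 45.8 and 43.7 FPKM in transgenic and 25.1 and 24.7 FPKM in wild-type LPS liver (0.82, SE 0.11). The list of cytokine and NF-kB target genes as a whole had 10 of 35 higher and 7 lower, beside 22.1% and 30.3% over all features, with a median of 0.02. Lbp, the LPS binding protein, was higher in both replicates at 98.3 and 85.4 against 65.3 and 67.7 FPKM, and its partner Cd14 had 46.7 and 20.8 FPKM in transgenic and 21.7 and 26.03 FPKM in wild-type LPS liver. Of 26 LPS sensing genes 8 lay higher and 6 lower (0.04), and of 29 interferon-stimulated genes 5 lay higher and 12 lower (-0.13), with the GTPase Iigp1 at 35.6 and 85.6 against 63.98 and 57.7 FPKM and Ifi27 at 27.7 and 24.2 against 29.3 and 32.4 FPKM. Of 32 acute phase genes 10 lay higher and 4 lower, with a median of 0.23 (0.03 in replicate 1 and 0.25 in replicate 2), and replicate 2 led for Saa3, at 835 and 2059.8 FPKM in transgenic and 923 and 907 FPKM in wild-type LPS liver. Lcn2, an iron-scavenging lipocalin, had 452 and 1050.3 FPKM in transgenic and 839 and 484 FPKM in wild-type LPS liver. Hamp, the iron hormone hepcidin, had 2098 and 357 FPKM in transgenic and 477 and 908 FPKM in wild-type LPS liver, and of 28 metal and iron genes 5 lay higher and 11 lower (-0.14, and -0.025 after quantile normalization), where the BMP target Id1 was set apart lower at 12.8 and 10.96 against 28.5 and 22.3 FPKM. The macroglobulin gene A2m stood out in replicate 2, with 1.37 and 14.1 FPKM in transgenic and 2.19 and 1.64 FPKM in wild-type LPS liver. Of 36 unfolded protein response genes 15 lay higher and 5 lower, with a median of 0.17 (0.03 in replicate 1 and 0.31 in replicate 2), and with the chaperone Hsp90b1 at 156 and 189 against 142 and 149.8 FPKM and Herpud1 at 183 and 245 against 189 and 230.5 FPKM.

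Transcripts of other tissues varied between single libraries. The pancreas list had 20 tested genes, of which 16 (80.0%) were at least 2-fold below the other 3 libraries in replicate 2 of transgenic LPS liver, beside 0.196% of all features. In all 20 the groups overlapped. Its summed FPKM was 199.7 and 27.8 in transgenic and 277 and 106 in wild-type LPS liver, with Ctrb1, chymotrypsinogen, at 37.6 and 0.86 against 51.5 and 14.2 FPKM and Clps, colipase, at 7.64 and 0 against 12.4 and 3.77 FPKM. The lipase Pnlip had 6.79 and 0.131 FPKM in transgenic and 10.7 and 3.95 FPKM in wild-type LPS liver, and the row of Reg1 and Reg2 11.1 and 0.103 against 11.9 and 3.32 FPKM. The elastase Cela2a had 24.98 and 0.47 FPKM in transgenic and 34.2 and 10.7 FPKM in wild-type LPS liver, and Cela1 38.3 and 22.5 against 52.7 and 37.8 FPKM. Replicate 2 of transgenic LPS liver was the lowest of the 4 in each of these genes. The red blood cell list summed to 2424 and 2733 FPKM in transgenic and 5213 and 2688 FPKM in wild-type LPS liver. Of its 17 genes 1 lay higher and 5 lower, beside 22.1% and 30.3% over all features. The counts of the lists that follow stand beside the same shares. Car1, carbonic anhydrase 1 of erythrocytes, was set apart lower at 0.814 and 2.50 against 12.9 and 8.53 FPKM, beside 0.856% of all features set apart lower. The ribosomal RNA row Rn45s, in libraries made by selection for mRNA, measured 121 and 113 FPKM in transgenic and 259 and 375 FPKM in wild-type LPS liver (-1.41, SE 0.22). Of 5 tested adipose genes 3 lay higher and 1 lower, with Car3, which liver also expresses, the 1 set apart. A further 6 entries of this list fell under the filter. Cfd, the adipokine adipsin, had 1.50 and 10.7 FPKM in transgenic and 0.794 and 0.848 FPKM in wild-type LPS liver. It passed the filter only through the transgenic libraries, where it is high, and is no independent support for this count. Of 10 muscle, skin, gut and spleen genes 1 lay higher and 1 lower (-0.13), with Fabp2 at 33.4 and 35.1 against 47.997 and 39.4 FPKM and Tff3 at 10.2 and 15.98 against 8.52 and 12.8 FPKM. Of 7 nuclear and ribosomal RNA features 2 lay higher and 1 lower. The part of these transcripts in the differences above was not tested.

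The untreated livers show how much of the LPS comparison was shared. Of the 57 features set apart higher under LPS, 11 also lay higher in both untreated transgenic libraries and 26 lay lower in both. Of the 96 set apart lower, 22 lay lower and 8 higher. Over all tested features 15.1% lay higher and 14.3% lower in untreated transgenic liver. Genes higher in both settings included Cyp7a1, at 64.7 and 78.5 FPKM in untreated transgenic and 24.9 and 49.1 FPKM in untreated wild-type liver, and most genes of cholesterol synthesis. Genes that were higher under LPS and lower untreated included Lpin1, at 107 and 43.9 FPKM in untreated transgenic and 206 and 229 FPKM in untreated wild-type liver, and Gadd45b at 3.18 and 1.70 against 8.24 and 9.09 FPKM. The difference between the settings was tested in limma over all 8 libraries as an interaction, in which 1 of 11215 features (0.00892%) passed at an adjusted p under 0.05 and 1181 had an unadjusted p under 0.05.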

How the data were processed

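Per the labels' protocols, mRNA libraries that keep strand were prepared from flash-frozen liver. The authors deposited 1 table of FPKM values for 8 libraries. The submitters' processing notes name mm10, TopHat2 2.1.0, Bowtie2 2.2.6, Cuffdiff 2.2.1 and Cufflinks. Neither annotation, filters nor scaling is given in the sources used here. Depth is unknown, so no count test was run and no counting interval is given. Among values under 0.03 FPKM, ratios to replicate 1 of wild-type LPS liver fell within 0.05 (log2) of 1 peak for 55.3%, 18.0% and 47.0% in transgenic replicates 1 and 2 and wild-type replicate 2, so whole fragments were not recovered.

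Of 24545 rows 6197 were 0 in all libraries. For 492 repeated names the row with the higher sum was kept, 27 names had become dates, and 549 sets of names with identical values were each treated as 1 feature. Values were log2(FPKM + 1), which understates differences of low genes. limma 3.58.1 in R 4.3.3 was fitted to the 4 LPS libraries with the mean-variance trend (2 residual and a median of 2.81 prior degrees of freedom), 2-sided, with Benjamini-Hochberg adjustment, and was tested on simulated data. A threshold of 0.05 was used. Positions are from GENCODE vM21, whose build GRCm38 is mm10, by exact name, for 115 of 121 named features.

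The members, 41 gene lists (1188 entries, of which 944 were tested, 146 fell under the filter, 70 shared a row and 28 had no value above 0), tests and rules were chosen with earlier results of these data known. Named genes are Cyp7a1 and Apoe, the 12 set-apart features with the widest gap in each direction, the 10 highest and 5 lowest features of each transgenic LPS library relative to the other 3, and up to 4 set-apart members (otherwise the 2 highest) per list. All members of the bile acid synthesis list and 20 of the cholesterol synthesis list are given, other genes were chosen after their values were seen, and some genes that the rule names are not reported here. Replicate numbers were not taken as pairs. The settings varied were the pseudocount (0.1), the filter (none or 5 FPKM), quantile normalization, median scaling, all 8 libraries, no trend, robust moderation, a replicate block and leaving out each library.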

Additional observations from a re-analysis of the deposited data

Results flagged for a closer look

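The genotype difference under LPS differed from that in untreated liver for 1 feature by the interaction test. Mup12, 1 of the near-identical major urinary protein genes, had an interaction of -6.80 on the log2 scale (limma adjusted p = 0.0324). It measured 0.298 and 1.20 FPKM in transgenic LPS liver and 2.76 and 1.66 FPKM in wild-type LPS liver, and 38.2 and 89.9 FPKM in untreated transgenic liver, while it was listed at 0 in both untreated wild-type libraries. Fragments of this family can be split between its members, so the value is uncertain. In fits without each single library in turn, the number of features called ranged from 0 to 302.

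For 12 named genes both transgenic libraries lay on 1 side of both wild-type libraries under LPS, set apart, and on the other side in untreated liver. The interaction test did not pass for any of them. The log2 difference under LPS was 2.46 for Cux2, against -0.77 untreated (interaction adjusted p = 0.261), and 2.05 for the Ankhd1 and Eif4ebp3 row, against -1.23 (0.261). It was 2.02 for Arl4d and -0.90 untreated (0.284), 1.68 for Nipal1 and -1.45 untreated (0.253), and 1.53 for Acacb and -0.34 untreated (0.14). Lpin1 had 1.53 under LPS and -1.65 untreated (0.261), and Sult1d1 0.92 and -1.28 (0.401). Gadd45b came nearest to passing, with 1.24 under LPS and -1.52 untreated (0.0682). Tsc22d3 had 0.87 and -0.94 (0.284), Cdkn1a 0.88 and -1.08 (0.253), and Il1r1 0.82 and -0.99 (0.253). Foxa1 was the 1 gene lower under LPS, at -0.85, and higher untreated, at 0.86 (0.266). All numbers in parentheses are limma adjusted p values of the interaction.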

How the results depend on the processing

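The count of 0 features passing stood under each setting that kept all 4 libraries, where the smallest adjusted p was 0.0805 with all 8 libraries in 1 fit, 0.124 with the replicate number as a block, and 0.245 to 0.373 otherwise. Without single libraries the count ranged from 0 to 2449, as given above. The 2 groups share replicate numbers, but same-numbered libraries did not deviate together (correlation 0.05 over 11215 features), so the numbers were not read as pairs. With the replicate block Cyp7a1 kept 1.57 (adjusted p = 0.184) and 1521 features had an unadjusted p under 0.05, against 1785. Cyp7a1 ranged from 1.33 to 1.80 without single libraries, with an adjusted p of 0.0264 without replicate 1 and 0.00504 without replicate 2 of transgenic LPS liver, and 0.975 and 0.879 without replicates 1 and 2 of wild-type LPS liver.

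Features that did not overlap numbered 1501 higher under a filter of 5 FPKM, and 3337 to 4153 higher and 4190 to 5409 lower without single libraries, where fewer values have to be in order. Set-apart features numbered 92 higher and 152 lower with a pseudocount of 0.1 FPKM, and 92 to 455 higher and 148 to 854 lower without single libraries. Of those set apart higher, the number also higher untreated was 17 with a pseudocount of 0.1 FPKM and 13 to 58 without single libraries, and the number lower untreated 37 to 172. Of those set apart lower, 28 to 139 were lower untreated without single libraries. The number higher untreated was 21 with a pseudocount of 0.1 FPKM, 5 with a filter of 5 FPKM and 14 to 164 without single libraries. The interaction called 0 to 302 features without single libraries, the 302 without replicate 2 of transgenic LPS liver.

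Of 121 named features 8 turned direction after quantile normalization: Slc10a1 (0.0116), Scd1 (0.0953), the Lyz1 and Lyz2 row (0.0617), S100a8 (0.0648), Xbp1 (0.0759), Dcn (0.138), Cox4i1 (0.0603) and Eif2s3y (0.0685). Dcn (0.0406) and Eif2s3y (0.0216) turned after median scaling. Others turned without a single library, and their ranges were Fam222a -0.057 to 2.73, Cdc42ep5 -0.11 to 2.70, Ppp1r3c -3.14 to 1.18, Tsku -2.84 to 0.022, Dalrd3 -0.15 to 3.04, Fdft1 -0.0504 to 2.54, A2m -0.29 to 2.38, Ctrb1 -3.92 to 0.45, Cela2a -3.79 to 0.36, Clps -3.00 to 0.11, Pnlip -2.75 to 0.037, Reg1 and Reg2 -2.76 to 0.70, Slc10a1 -0.78 to 0.41, Nr1h4 -0.63 to 0.22, Scd1 -0.17 to 0.079, Apoa1 -0.63 to 0.0303, Iigp1 -0.76 to 0.49, Cd14 -0.19 to 0.94, Lyz1 and Lyz2 -0.31 to 0.053, Lamp1 -0.26 to 0.013, Lcn2 -0.49 to 0.72, S100a8 -0.50 to 0.28, Xbp1 -0.12 to 0.023, Fn1 -0.037 to 0.36, Dcn -0.14 to 0.14, Herpud1 -0.19 to 0.23, Tff3 -0.038 to 0.57 and Eif2s3y -0.19 to 0.15. Without single libraries the median also changed sign for these gene lists, with ranges of -0.38 to 0.044 (bile acid transport), -0.18 to 0.12 (bile acid control), -0.053 to 0.38 (lipogenesis), -0.10 to 0.17 (amino acid metabolism), -0.019 to 0.07 (LPS sensing), -0.027 to 0.092 (lysosomal genes), -0.22 to 0.088 (T and NK cells), -0.20 to 0.14 (stellate cells and matrix), -0.063 to 0.025 (endothelium), -0.55 to 0.066 (cholangiocytes), -0.22 to 0.024 (cell cycle), -0.11 to 0.51 (immediate early genes), -0.61 to 0.044 (clock genes), -0.81 to 0.0013 (male-biased genes), -2.28 to 0.28 (pancreas), -0.21 to 0.12 (muscle, skin, gut and spleen) and -0.20 to 0.19 (nuclear and ribosomal RNA). After median scaling, list medians given above only after quantile normalization were -0.21 for bile acid synthesis, -0.14 for bile acid transport and -0.25 for apolipoproteins. They were -0.007 for LXR targets, -0.49 for P450 genes, -0.41 for NRF2 and conjugation genes and -0.18 for hepatocyte genes. For B and plasma cells, endothelium, and metal and iron genes they were -0.17, 0.02 and -0.097. Depth is unknown, low values carry a counting error that cannot be given, and 2 libraries a group limit the test.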
